A study of Mus musculus with 6 samples.

Results

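Crypt base columnar cells are the dividing stem cells at the base of intestinal crypts, and 10 genes that mark them are described here across 6 mouse libraries: Lgr5, Ascl2, Olfm4, Smoc2, Slc12a2, Msi1, Rgmb, Mex3a, Cdca7 and Tnfrsf19. The genes were chosen by symbol, and all 10 were found among the 24930 genes of the deposited table. RNA came from primary crypt epithelium. The mutant group holds 3 libraries of β-catenin GOF/+ crypts, in which 1 allele of the β-catenin gene carries a gain-of-function mutation, and the control group holds 3 libraries; both were taken at day 4 after induction. The mutant columns of the table are named exonhet and were matched to this group, the only one not named Control. The driver of the recombination, the genotype of the controls, the strain, the age and the gut segment are not given in the labels, nor is it stated that each library came from its own mouse. P-values therefore measure only the spread among these 6 libraries, and some of that spread may be technical.

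Crypt base columnar cells sit between Paneth cells, renew themselves, and feed the transit-amplifying cells that become enterocytes and secretory cells. Their gene programme depends on WNT signals that stabilize β-catenin, which then acts with TCF factors on target genes, and on Notch signals from neighbouring cells. LGR5 is the receptor for R-spondins that raises the WNT response, and ASCL2 is a transcription factor that maintains the stem cell state together with β-catenin and TCF. OLFM4 is a secreted glycoprotein and a known Notch target in the crypt, and SMOC2 is a secreted matrix-associated protein. RGMB is a membrane-anchored BMP co-receptor, TNFRSF19, also called TROY, is a receptor of the TNF receptor family, and SLC12A2 is a sodium, potassium and chloride cotransporter. MSI1 and MEX3A are RNA-binding proteins, and CDCA7 is a nuclear protein linked to chromatin and DNA methylation.

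The sequence before the start site is shown for 4 of these genes, the 3 in which a searched motif was found and Ascl2, in which none was. RefSeq promoter windows on GRCm38.p6 were matched by symbol for 6 of the 10 genes (Cdca7, Mex3a, Ascl2, Tnfrsf19, Olfm4 and Rgmb), with 9 windows in all. In the 250 bases before each start, 3 motifs were searched on both strands: CTTTGAT for TCF factors, TGGGAA for RBPJ, the DNA-binding partner of Notch, and the E-box CAGCTG, which factors of the ASCL class can bind. Over all 32851 windows of this length in the RefSeq table, 3.21% held the first, 21.6% the second and 13.0% the third. Counted by gene, over 27025 genes, the shares were 3.72%, 24.1% and 14.7%. Capitals mark matched letters on either strand, and no matches overlapped each other. The windows are Olfm4 at chr14:80000052-80000301 on the plus strand, Cdca7 at chr2:72475969-72476218 on the plus strand, the second of the 2 Tnfrsf19 windows at chr14:61037988-61038237 on the minus strand, and Ascl2 at chr7:142969265-142969514 on the minus strand, each written 5′ to 3′.
Olfm4: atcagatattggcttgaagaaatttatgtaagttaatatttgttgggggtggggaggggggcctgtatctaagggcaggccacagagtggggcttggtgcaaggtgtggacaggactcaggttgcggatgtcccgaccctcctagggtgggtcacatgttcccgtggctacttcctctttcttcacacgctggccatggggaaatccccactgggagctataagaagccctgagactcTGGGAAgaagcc
Cdca7: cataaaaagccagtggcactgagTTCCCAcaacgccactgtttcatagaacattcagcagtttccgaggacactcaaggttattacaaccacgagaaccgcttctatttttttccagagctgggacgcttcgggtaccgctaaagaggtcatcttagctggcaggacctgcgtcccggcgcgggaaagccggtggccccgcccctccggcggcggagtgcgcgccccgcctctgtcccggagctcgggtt
Tnfrsf19: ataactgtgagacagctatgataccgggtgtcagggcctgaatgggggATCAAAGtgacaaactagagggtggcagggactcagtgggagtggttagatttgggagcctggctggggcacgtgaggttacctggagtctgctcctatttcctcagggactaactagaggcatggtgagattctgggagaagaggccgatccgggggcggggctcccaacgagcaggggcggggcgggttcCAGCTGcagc
Ascl2: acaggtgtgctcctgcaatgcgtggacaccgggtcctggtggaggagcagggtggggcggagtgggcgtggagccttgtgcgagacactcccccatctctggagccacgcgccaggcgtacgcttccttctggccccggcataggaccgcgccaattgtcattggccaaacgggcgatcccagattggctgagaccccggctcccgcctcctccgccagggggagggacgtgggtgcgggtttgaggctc
The RBPJ letters were found in Olfm4, from 12 to 7 bases before the start, and in Cdca7, from 227 to 222 bases before it. The TCF letters were found in 1 of the 6 genes, Tnfrsf19, from 202 to 196 bases before the start, and the same window held the E-box from 10 to 5 bases before it. The Ascl2 window held none of the 3 motifs. A match is a description of letters, and the lack of one says only that these letters are not in this window.

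Deposited values give each gene's normalized abundance, written here as units. For genes with a single annotated transcript, low values multiplied by transcript length fell mostly in whole steps, so a unit was taken as a level per length and levels were compared between genes. Between 77.0 and 82.4% of the low values came within 0.1 of a whole read, up to about 5 reads. The step was set at the most common low value, so the 127 to 166 genes taken as 1 read count as whole by construction. Low values numbered 426 to 507 per library, and the share to be met by chance was not computed. The same steps gave rough totals of 7840000 to 12000000 reads per library. Mex3a, the lowest of the 10 genes in units, then corresponds to about 47.2 reads in mutant replicate 3 and 108 to 147 reads in the other 5 libraries. Genes with several transcripts may have fewer reads, depending on the transcript length assumed. In mutant replicate 3 the estimates were 7.27 to 94.9 reads for Lgr5, 10.4 to 74.5 for Tnfrsf19 and 10.7 to 198 for Msi1. They were 18.1 to 531 for Smoc2 and 21.5 to 49.6 for Ascl2. Genes expressed by all gut epithelial cells summed to 7559 to 9239 units in control against 8394 to 10214 units in mutant libraries, so markers of the labelled tissue were present in every library. By Xist and Y-linked genes, control replicates 1 and 2 and mutant replicate 1 were male and the other 3 libraries female. Mutant replicate 3 stood apart from the other libraries, and results are given with and without it. It was singled out after its values were seen.

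The 10 genes span a wide range of levels. In control libraries Olfm4 stood at 822 ± 362 units (mean ± SD, n = 3), above 99.0% of the 11837 genes tested, and Mex3a at 1.36 ± 0.329 units, above 4.64% of them, a ratio of 607. Slc12a2 (97.5 ± 32.4 units), Cdca7 (56.8 ± 11.3 units), Smoc2 (49.7 ± 4.75 units) and Rgmb (26.9 ± 5.91 units) followed Olfm4. A lower tier held Msi1 (7.23 ± 2.61 units), Lgr5 (5.94 ± 1.03 units), Ascl2 (5.02 ± 1.80 units) and Tnfrsf19 (2.90 ± 0.924 units). In this bulk RNA, Lgr5, the receptor gene that defines these cells, thus stood in the lower tier, 138 times below Olfm4. Bulk levels do not give the level of a transcript within the stem cells. The order of the group means was the same in mutant libraries. The neighbours Cdca7 and Smoc2, and likewise Msi1, Lgr5 and Ascl2, had means closer than the larger of their SDs. Within single libraries Cdca7 was above Smoc2 and Msi1 above Lgr5 in 6 of 6, Smoc2 above Rgmb in 5 of 6 and Lgr5 above Ascl2 in 4 of 6.

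Compared between the groups, all 10 genes had a lower mean log2 value in mutant crypts, and 0 of them passed the test. The share of all 11837 tested genes that were lower was 52.7%, and the share called lower at an adjusted p under 0.05 was 0.0169% (2 genes; none was called higher). The median log2 difference of the 10 genes was -0.39, on the log2(value + 1) scale, and that of all tested genes was -0.02. A shared direction was not particular to these genes. Lower were also 15 of 15 Paneth cell genes (median -1.40) and 8 of 8 tested tuft cell genes (median -0.77), with 0 called. In the enterocyte, goblet cell and enteroendocrine lists, 1 of 18, 3 of 8 and 2 of 9 tested genes were lower. At an unadjusted p under 0.05, limma gave 0 of the 10 genes, against 425 lower (3.59%) and 559 higher among all genes. That count for the 10 genes was 4 without mutant replicate 2, 3 with the replicate number as a block, and 1 each with array weights and without control replicate 3. The count over all tested genes, in either direction, was 984 in the main fit. In the same order of settings it was 1717 of 11882, 1457 of 11837, 2572 of 11837 and 834 of 11832, so the background rose or fell as well. Adjusted p-values in limma lay between 0.589 for Smoc2 and 0.982 for Tnfrsf19. In bulk RNA, fewer stem cells and less RNA of these genes per cell cannot be told apart. Without mutant replicate 3 the median of the 10 genes was -0.11, with 8 of them lower and 2 higher. The Paneth cell and tuft cell medians were then -1.01 and -0.84, with 15 of 15 and 8 of 8 genes lower.

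**Figure D1:**
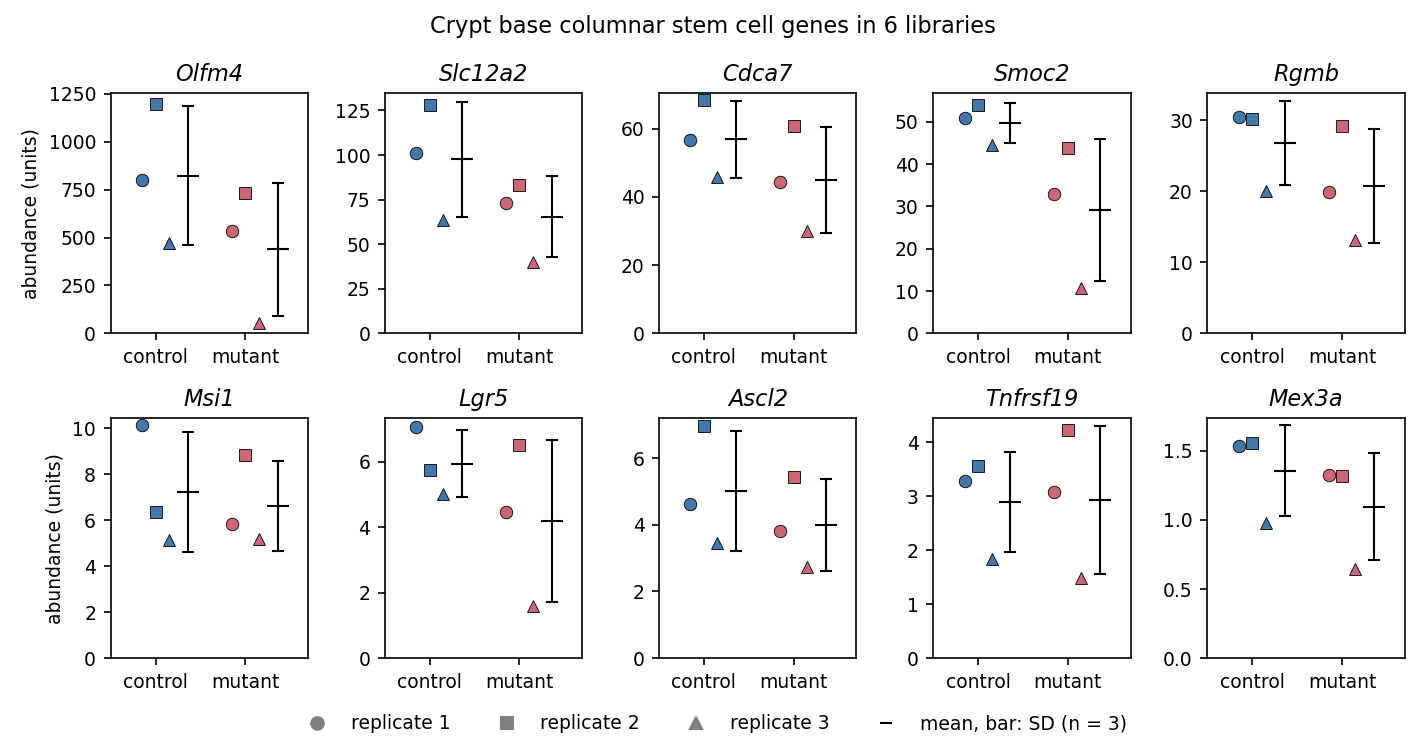
Abundance in units (vertical axes, linear, each starting at 0) of the 10 genes in control and mutant libraries. Points are libraries, shaped by replicate number, and the bar beside them is the mean with its SD (n = 3); mutant replicate 3 is the lowest of the 6 points in 9 of 10 panels, and the groups are separate in the Smoc2 panel alone.

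Among the receptors, Lgr5 had 7.06, 5.75 and 5.03 units in control replicates 1 to 3 and 4.47, 6.52 and 1.58 units in mutant replicates 1 to 3. Mutant replicate 2 lay inside the control range, mutant replicate 1 just below it, and mutant replicate 3 at 3.18 times less than the lowest control library. The log2 difference was -0.54 ± 0.38 (SE; limma adjusted p of 0.618), and -0.10 without mutant replicate 3. Tnfrsf19 had 3.28, 3.57 and 1.84 units in control against 3.08, 4.22 and 1.48 units in mutant libraries. Its highest and its lowest value were both in mutant libraries, and the group means were 2.90 and 2.93 units. The log2 difference was -0.02 ± 0.32 (adjusted p of 0.982 in limma), and it was 0.27 without mutant replicate 3. The BMP co-receptor gene Rgmb had 30.4, 30.1 and 20.0 units in control against 19.8, 29.2 and 13.2 units in mutant libraries. Control replicate 3 and mutant replicate 1 were nearly level, and the log2 difference was -0.40 ± 0.30 (adjusted p of 0.629 in limma), or -0.13 without mutant replicate 3.

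The transcription factor gene Ascl2 had 4.62, 6.97 and 3.45 units in control against 3.82, 5.45 and 2.72 units in mutant libraries. The groups overlapped, with 2 of 3 mutant values inside the control range, and the log2 difference was -0.26 ± 0.28 (adjusted p of 0.718 in limma). Cdca7, also a nuclear protein gene, had 56.5, 68.3 and 45.7 units in control against 44.2, 60.8 and 29.9 units in mutant libraries. Mutant replicate 1 was just below control replicate 3, and the log2 difference was -0.37 ± 0.28 (adjusted p of 0.629 in limma). Without mutant replicate 3 these values were -0.07 for Ascl2 and -0.11 for Cdca7.

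The secreted proteins gave the most negative differences. Olfm4 had 800, 1195 and 472 units in control against 533, 731 and 54.6 units in mutant libraries. Mutant replicates 1 and 2 lay inside the control range, and mutant replicate 3 was 8.66 times below the lowest of the other 5 libraries. The log2 difference was -1.46 ± 0.95 (adjusted p of 0.605 in limma), with a 95% confidence interval from -3.72 to 0.79, and it was -0.30 without mutant replicate 3. Smoc2 had 50.8, 53.8 and 44.5 units in control against 32.9, 43.8 and 10.8 units in mutant libraries. It was the 1 gene of the 10 whose mutant values were all below all control values, although mutant replicate 2 was close to control replicate 3. Among all tested genes 8.37% had groups apart in this direction, so 1 of 10 is near the background. In the other direction, 0 of the 10 genes had groups apart, against 8.34% of all tested genes. The log2 difference of Smoc2 was -0.95 ± 0.46 (adjusted p of 0.589 in limma), and it was -0.38 without mutant replicate 3.

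The cotransporter gene Slc12a2 had 101, 128 and 63.5 units in control against 73.2, 83.0 and 39.9 units in mutant libraries. Both of the first 2 mutant replicates were inside the control range, and the log2 difference was -0.58 ± 0.35 (adjusted p of 0.598 in limma), or -0.26 without mutant replicate 3. The RNA-binding protein gene Msi1 had 10.2, 6.36 and 5.16 units in control against 5.86, 8.85 and 5.17 units in mutant libraries. All 3 mutant values of Msi1 were inside the control range, and its log2 difference was -0.09 ± 0.27 (adjusted p of 0.907 in limma). Mex3a had 1.54, 1.55 and 0.977 units in control against 1.32, 1.32 and 0.648 units in mutant libraries. Its log2 difference was -0.18 ± 0.22 (adjusted p of 0.763 in limma), and at this level the added pseudocount of 1 lessens any difference. The same limit holds for other low genes. With a pseudocount of 0.1 the log2 difference was -0.32 for Mex3a, -0.69 for Lgr5, -0.32 for Ascl2 and -0.05 for Tnfrsf19. Without mutant replicate 3 the log2 differences were 0.05 for Msi1 and -0.01 for Mex3a.

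**Figure D2:**
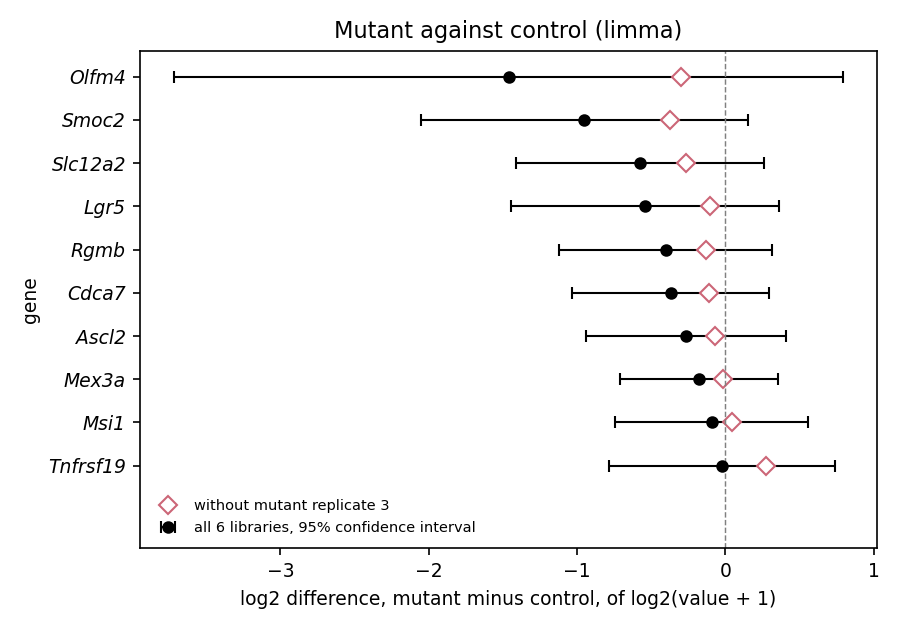
Log2 difference between mutant and control libraries (horizontal axis) for each gene (vertical axis). Black points with bars are the fit on all 6 libraries with 95% confidence intervals, all of which include 0, and open diamonds are the fit without mutant replicate 3, which lies nearer 0 than the full fit for 9 genes and on the other side of 0 for Msi1 and Tnfrsf19.

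The 10 genes shared much of their order from library to library. Control replicate 3 had the lowest control value for all 10 genes, mutant replicate 2 the highest mutant value for 9 and mutant replicate 3 the lowest mutant value for 10. Over all tested genes those shares were 37.4% for control replicate 3 and 36.2% for mutant replicate 2. The share with the lowest mutant value in mutant replicate 3 was not computed. Mutant replicate 3 had the lowest value of all 6 libraries for 9 of the 10 genes, against 36.4% of all tested genes. Mean scores of the 10 genes, as log2(value + 1) minus the control mean, were 0.14, 0.24 and -0.37 in control replicates 1 to 3 and -0.29, 0.08 and -1.25 in mutant replicates 1 to 3. The first 2 mutant libraries thus scored within the range of the 3 control libraries. Between male libraries, mutant replicate 1 against control replicates 1 and 2, the median log2 difference was -0.48 with all 10 genes lower. Between female libraries, mutant replicates 2 and 3 against control replicate 3, it was -0.06 with 7 lower. Medians of all tested genes were -0.01 and -0.02, and their shares lower within each sex were not computed. A difference between the sexes was not tested.

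**Figure D3:**
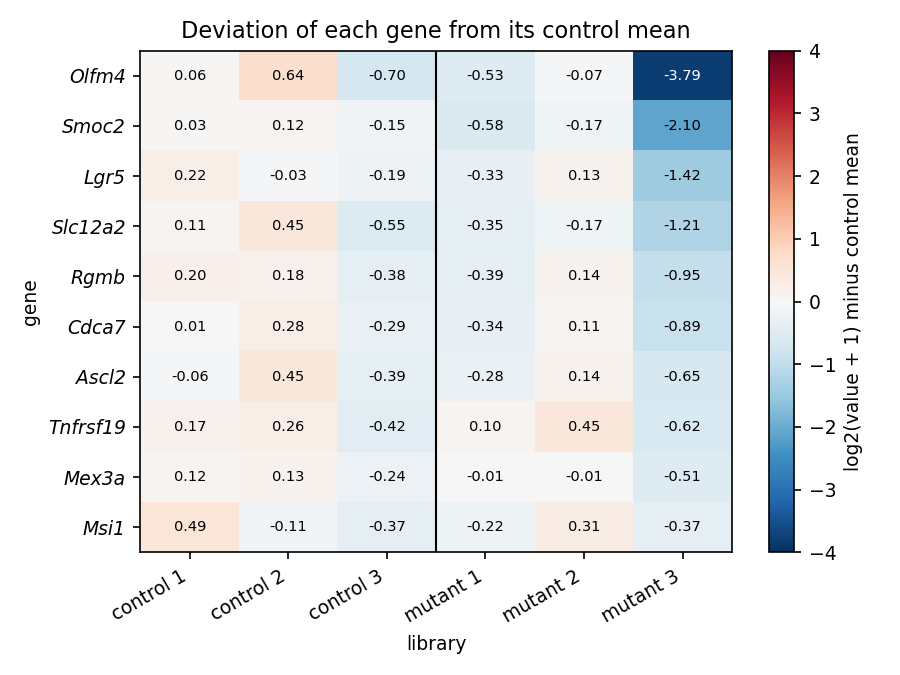
Difference of log2(value + 1) from the control mean for each gene (rows, ordered by mutant replicate 3) in each library (columns), with the value printed in each cell; blue is lower and red higher. The mutant replicate 3 column runs from -3.79 for Olfm4 to -0.37 for Msi1, and the control replicate 3 and mutant replicate 1 columns are below 0 for 10 and 9 of the genes.

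In mutant replicate 3 the 10 genes were not lower by a common factor. Against the control mean, Olfm4 was 15.1 times lower, Smoc2 4.60 times and Lgr5 3.75 times. Slc12a2 was 2.44 times lower, Mex3a 2.09 times, Rgmb 2.04 times, Tnfrsf19 1.95 times, Cdca7 1.90 times, Ascl2 1.84 times and Msi1 1.40 times. These are values of 1 library with no replicate. Lgr5 there corresponds to an estimated 7.27 to 94.9 reads, so the ratios to Lgr5 below are uncertain in that library. Set against Lgr5 in the same library, Smoc2 kept a narrow range of 6.72 to 9.37 units per unit of Lgr5 over the 6 libraries, mutant replicate 3 included (6.82). The ratio of Olfm4 to Lgr5 was 113, 208 and 93.9 in control libraries and 119, 112 and 34.4 in mutant libraries. The ratio of Msi1 to Lgr5 was 1.03 to 1.44 in control libraries and in mutant replicates 1 and 2 was 1.31 and 1.36, with 3.27 in mutant replicate 3. For Cdca7 it was 8.00 to 11.9 in control libraries and 9.90, 9.33 and 18.9 in mutant libraries.

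Other genes of published crypt stem cell signatures were split in direction. Of 45 listed genes 44 were tested, 24 lower and 20 higher, with a median log2 difference of -0.02, and 0 passed in limma. The urea transporter gene Slc14a1 had 8.00, 6.28 and 7.08 units in control against 3.14, 3.45 and 0.580 units in mutant libraries. The groups did not overlap, and the log2 difference was -1.40 ± 0.39 (adjusted p of 0.589 in limma). Igfbp4, which encodes an insulin-like growth factor binding protein, stood the other way, with 9.06 to 13.4 units in control against 14.3 to 22.0 units in mutant libraries (log2 difference 0.74 ± 0.21, adjusted p of 0.589 in limma). Phlda1 likewise had 4.68 to 11.4 units in control against 14.3 to 45.0 units in mutant libraries (1.54 ± 0.49, 0.589 in limma). Groups did not overlap for 4 of the 44 genes that were lower and 4 that were higher, near the background of 8.37% and 8.34% over all tested genes. Besides those 3, these were Gkn3, Prom1 and Casp12 (lower) and Cd44 and Etv5 (higher), named after their values were seen. Casp12 and Cttnbp2 passed the filter on low values through their control mean alone, and Htr4 and Etv4 through their mutant mean alone. Gkn3, a gastrokine gene, had 3.09, 4.68 and 2.25 units in control against 1.15, 2.12 and 0.259 units in mutant libraries.

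The summed level of WNT target genes in mutant replicate 3, where the stem cell genes were lowest, lay within the control range. Of 21 listed WNT targets 15 were tested, 5 lower and 10 higher, with a median log2 difference of 0.12 and 0 called in limma, and 1 of the 5, Prox1, passed the filter through its control mean alone. Among those tested, Axin2, Cd44, Ephb2, Ephb3, Rnf43, Sox9 and Znrf3 were also among the other stem cell signature genes above, so the lists are not independent. The sum of the list was 193 to 290 units in control against 248 to 281 units in mutant libraries, with 281 in mutant replicate 3. The feedback gene Axin2 had 32.6, 33.0 and 21.0 units in control against 32.7, 32.4 and 35.4 units in mutant libraries. The 3 members with the smallest p were Tcf7, Sp5 and Cd44. Tcf7, a TCF family transcription factor gene, had 3.61 to 4.80 units in control against 4.71 to 6.51 units in mutant libraries, Sp5 had 1.33 to 1.60 and 1.91 to 3.20 units, and Cd44 had 7.04 to 13.1 and 13.2 to 32.2 units. All 4 genes had their highest value in mutant replicate 3, and the adjusted p of the last 3 was 0.589 in limma. Over all tested genes, 37.4% had the highest of their mutant values in that library. The share with the highest value of all libraries there was not computed. The 5 lower genes were Bambi (log2 difference -0.59), Prox1 (-0.30), Nkd1 (-0.26), Znrf3 (-0.08) and Lgr4 (-0.06).

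Notch pathway genes were split. Of 12 listed genes 10 were tested, 6 lower and 4 higher, with a median log2 difference of -0.01 and 0 called in limma. Hes1, a transcriptional repressor gene induced by Notch, had 31.9, 37.0 and 29.6 units in control against 20.8, 27.3 and 18.2 units in mutant libraries (log2 difference -0.56 ± 0.18, adjusted p of 0.589 in limma). The groups of Hes1 did not overlap. The ligand gene Jag1 stood the other way, at 3.26 to 4.13 units in control against 5.52 to 6.62 units in mutant libraries (0.57 ± 0.15, 0.589 in limma). Dll4, another ligand gene, had 3.95 to 5.77 and 5.98 to 8.88 units. Notch1, the receptor gene, had 4.41 to 5.76 units in control against 3.83 to 5.14 units in mutant libraries. No test of a link between these genes and Olfm4 was made.

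Cell cycle genes ordered the libraries much as the stem cell genes did. All 30 listed were tested, 24 lower and 6 higher, with a median log2 difference of -0.19 and 0 called in limma. List scores came to -0.04, 0.28 and -0.24 for control libraries and to -0.10, 0.28 and -0.71 for mutant libraries. Mki67, the proliferation marker gene, had 50.9, 78.3 and 46.2 units in control against 51.3, 52.3 and 20.6 units in mutant libraries, and Cenpf, a centromere protein gene, had 6.17 to 14.0 and 2.08 to 7.12 units. Rrm2, which encodes a ribonucleotide reductase subunit, had 23.2 to 27.1 units in control against 28.4 to 46.3 units in mutant libraries (log2 difference 0.49 ± 0.20, adjusted p of 0.589 in limma). Without mutant replicate 3 the median of the list was 0.06, with 21 of 30 genes higher.

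Markers of other cell types also varied between libraries, and their part in the result was not tested. Scores of 18 enterocyte genes were -0.58, -0.19 and 0.77 for control and 1.00, -0.21 and 1.55 for mutant libraries. The 3 libraries with the highest stem cell scores had the 3 lowest enterocyte scores, and mutant replicate 3 had the lowest stem cell and the highest enterocyte score. Summed enterocyte levels ranged from 5480 to 13969 units in control against from 7880 to 31324 units in mutant libraries. Scores of 15 Paneth cell genes were 1.26, -0.41 and -0.85 for control and -1.85, -0.39 and -2.10 for mutant libraries. Goblet cell scores ran from -0.26 to 0.14 in control and from 0.11 to 0.15 in mutant libraries, and enteroendocrine scores from -0.11 to 0.21 and from 0.14 to 0.50. Tuft cell scores were 0.58, -0.01 and -0.57 for control and -0.70, -0.83 and -0.39 for mutant libraries, an order unlike that of the stem cell genes. All 16 stromal genes, whatever their level, summed to 27.5 to 50.9 units in control against 58.4 to 131 units in mutant libraries, with Pdgfra at 0 in all 3 control libraries and 0.103 to 0.204 units in mutant libraries. Of 16 immune genes, the 15 in the table summed to 552 to 1285 and 438 to 1884 units. Scores of all 13 regeneration and fetal-like genes, whatever their level, were 0.19, -0.26 and 0.07 for control and 0.42, 0.50 and 2.40 for mutant libraries. Scaling every library to the same sum of genes shared by all gut epithelial cells left the 10 stem cell genes with a median log2 difference of -0.54 and 0 called in limma, while the median of all tested genes went from -0.02 to -0.16.

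**Figure D4:**
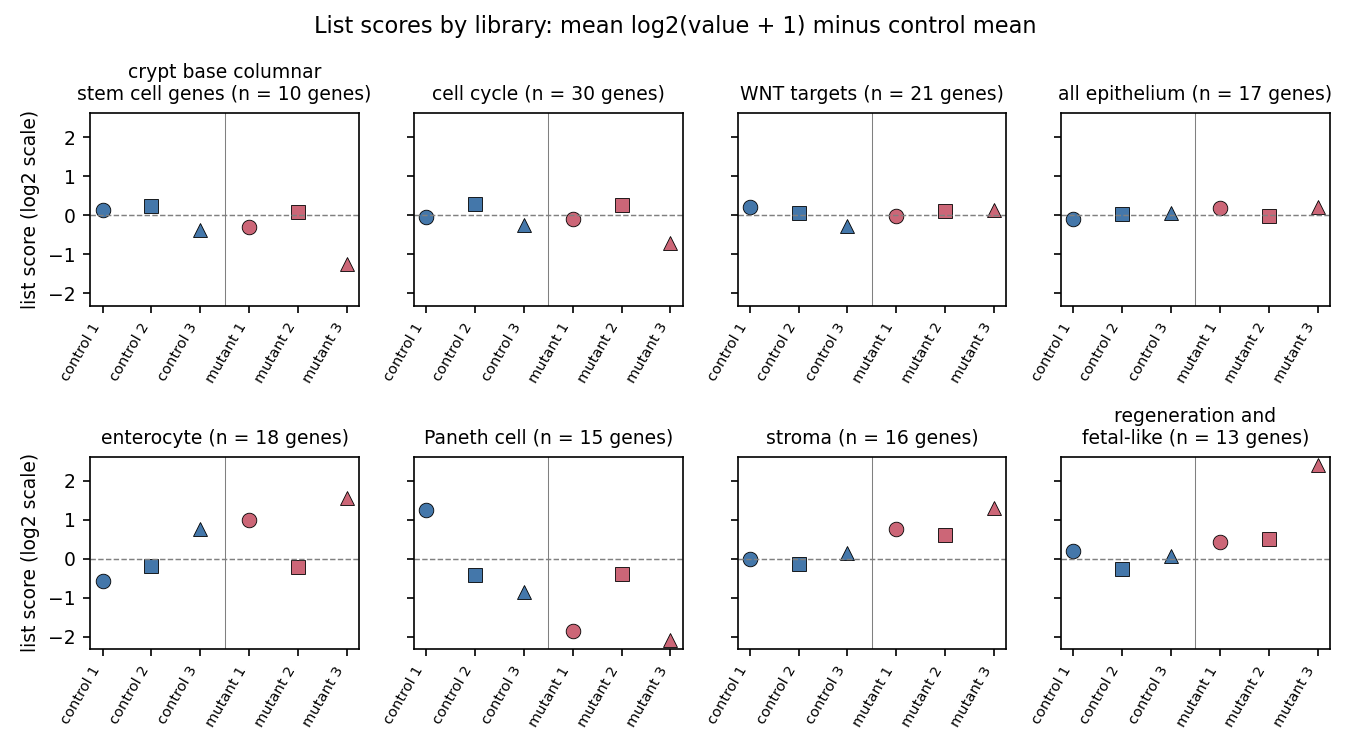
Mean score of each gene list over all listed genes in the table (vertical axes, log2 scale, 0 at the control mean) in each library (horizontal axes), with blue points for control, red points for mutant and shapes for replicate numbers. Mutant replicate 3 is the lowest for stem cell, cell cycle and Paneth cell genes. It is the highest for all-epithelium, enterocyte, stromal and regeneration genes. Its score for WNT targets, 0.14, lies among those of the other libraries.

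The nearest relatives of the 10 genes gave no shared direction. Lgr4, which encodes a second R-spondin receptor, had 38.7 to 55.6 units in control against 42.1 to 54.1 units in mutant libraries, above Lgr5 in all 6 libraries, and Lgr6 was listed at 0 in 5 libraries and at 0.0224 units in mutant replicate 3. Msi2 had 5.22 to 9.68 units in control against 5.32 to 7.27 units in mutant libraries, close to the level of Msi1. Mex3c stood above Mex3a, at 15.8 to 21.9 and 15.2 to 20.7 units. Of 8 relatives tested, 3 were lower and 5 higher, with 0 called in limma, but 2 of those 5, Olfm1 and Eda2r, passed the filter on low values through their mutant mean alone and so had to be higher. Cdca7l, the relative of Cdca7, had 14.5, 17.8 and 14.8 units in control against 9.96, 11.6 and 5.51 units in mutant libraries. The groups of Cdca7l did not overlap, and its log2 difference was -0.79 ± 0.26 (adjusted p of 0.589 in limma). Eda2r, a receptor gene of the TNF receptor family like Tnfrsf19, had 0.319 to 0.421 units in control against 0.810 to 3.35 units in mutant libraries. Olfm1, a relative of Olfm4, had 0.693 to 1.01 and 1.37 to 1.59 units.

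The genes most like a stem cell gene in their pattern over the 6 libraries were ranked by the mean absolute difference of centred log2(value + 1), among 8884 other genes with a mean of at least 5 units. For Lgr5 they were Rph3al, Klk1, 9330162012Rik, Fkbp4 and Map2k6, at 0.081 to 0.104. For Smoc2 they were Nr5a2, Clca3b, Aldh1b1, Fam13a and Tk1, at 0.125 to 0.149. For Olfm4 they were Gm4070, Gm10052, Gm1966, Gm4759 and Sema5a, and the differences were larger, at 0.363 to 0.496. Aldh1b1, an aldehyde dehydrogenase gene, had 492, 606 and 534 units in control against 491, 486 and 133 units in mutant libraries. Gm4070, the closest to Olfm4, had 24.9, 77.5 and 25.7 units in control against 19.3, 20.6 and 1.47 units in mutant libraries.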

How the data were processed

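RNA from crypt epithelium was poly-A selected and sequenced on an Illumina platform after random-primed cDNA synthesis, per the labels' protocols. The authors deposited a signal: each gene's normalized abundance, on a scale shared by the libraries; kallisto 0.46.1, DESeq2 1.40.1 and the mm9 build are named per the submitters' processing notes, with no role, and neither annotation nor filters are stated there. The table has 24930 genes and 0 value columns without a sample.

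Values were taken as log2(value + 1). Genes averaging 1 unit or more (11837 genes, all 10 stem cell genes among them) were tested using limma 3.58.1 under R 4.3.3, with a trended variance, a group term alone and a Benjamini-Hochberg threshold of 0.05; the fit was tested on simulated data. The design provided for counts, but the values are not counts and limma was used. Depth was estimated from steps in low values, with GENCODE M21 transcript lengths less 1 fragment. That annotation holds overlapping genes for Mex3a (Mir1905, listed at 0) and Olfm4 (Gm6999, not analysed here). The stem cell genes and all lists were chosen with earlier results of these data known.

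Named were all 10 genes, the 3 genes with the smallest p of the other stem cell, WNT, Notch, cell cycle and relatives lists, any list gene past the threshold (0 genes) and the 5 genes most like Lgr5, Olfm4 and Smoc2; further names were picked with values in view. The alternatives were rescaling, other filters and pseudocounts, no trend, array weights, a replicate block, sex as a term and leaving out each library. Promoters came from RefSeq on GRCm38.p6. Other steps used Python 3.11.15 with pandas 2.3.3, matplotlib 3.10.9 and NumPy 2.4.6.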

Additional observations from a re-analysis of the deposited data

How the results depend on the processing

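Under all 17 alternatives 0 of the 10 stem cell genes were called in limma (7 of them tested with a mean of at least 5 units); the array weights stopped short of full convergence. Over the alternatives that kept all libraries the median log2 difference of the 10 genes stayed between -0.54 and -0.30, and it was -0.39 with the replicate block. With each library left out in turn it ranged from -0.64 without mutant replicate 2 to -0.11 without mutant replicate 3, and the number of genes lower ranged from 8 to 10. Of 167 single-gene values 160 kept their direction. The sign turned for Tnfrsf19 with array weights (0.068), with sex as a term (0.11), and without control replicate 1 (0.06), control replicate 2 (0.11) or mutant replicate 3 (0.27; the range over left-out libraries was -0.26 to 0.27), and for Msi1 without control replicate 1 (0.15) or mutant replicate 3 (0.05). The cause was not tested. Over all genes 2 were called, against 5 with epithelial scaling, 27 with array weights, 1 with a pseudocount of 5 or no trend, 0 without a filter, 0 with sex as a term, 0 with the replicate block, and 0 to 4 with a library left out. Without a filter more genes were tested (19202). Deviations of same-numbered libraries correlated over genes at -0.29, 0.33 and 0.32 for numbers 1 to 3. Control replicates 2 and 3 correlated best with their own number and control replicate 1 with mutant replicate 2, so the numbers were not taken as pairs. With 3 libraries a group the 95% intervals of the 10 genes are wide, and absolute read counts are estimates.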

Other observations

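Ligands of the stem cell niche were read in the same libraries. Wnt3, which Paneth cells express, had 11.3, 5.08 and 3.19 units in control against 4.85, 8.02 and 4.93 units in mutant libraries. Egf had 0.536 to 1.75 units in control against 0.388 to 1.17 units in mutant libraries. The genes Rspo2, Rspo3 and Nog, which encode 2 R-spondins and a BMP antagonist made by stromal cells, were listed at 0 in all 6 libraries. Rspo1 had 0.0832, 0 and 0.0292 units in control replicates 1 to 3 and 0.154 to 0.585 units in mutant libraries. Of the 16 niche genes, 3 were tested and 0 were called in limma.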
